A study of Mus musculus with 4 samples.

Results

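The resident-like macrophage genes comprised 9 transcripts, taken by gene symbol from the 32285 genes of each count matrix: Fcrls, Cbr2, F13a1, Folr2, Mrc1, Lyve1, Cd163, Pf4 and Selenop. They had been selected partly on the difference between strains in these same sections, so the strain values below are a description and carry no test of the members. Spatial gene expression was measured with 10x Visium, an array of barcoded spots that captures polyadenylated RNA from a tissue section. There were 4 MC38 tumors, 1 per mouse, with a section each. MC38 is a colon carcinoma line of C57BL/6J origin, and 500000 cells were placed under the skin of female hosts 8 to 12 weeks old. The hosts were F1 offspring of C57BL/6J with a Collaborative Cross strain, either CC075/UncJ (CC075F1, a strain the study classes as responding to anti-PD-1, 2 sections) or CC080/TauUncJ (CC080F1, classed as non-responding, 2 sections). All 4 mice had received a single isotype control antibody dose of 200 µg once tumors reached 75 to 110 mm3 and were killed 48 h later, so no section had been exposed to anti-PD-1, and every host carried a C57BL/6J genome copy beside its Collaborative Cross copy. The MC38 cells are a single line injected in all hosts, and stromal and immune cells come from the host.

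Macrophages that settle in a tissue before birth or under the influence of its growth factors often keep a program of scavenger and clearance genes, while cells newly derived from blood monocytes show more of an inflammatory or antigen-presenting program. Mrc1 (the mannose receptor CD206), Cd163 (the haptoglobin-hemoglobin scavenger receptor) and Lyve1 (a hyaluronan receptor, also carried by lymphatic endothelium) are endocytic receptors. Folr2 is a folate receptor and Fcrls an Fc receptor-like scavenger protein, F13a1 is the A subunit of coagulation factor XIII, Pf4 (CXCL4) is a chemokine best known from platelets, Selenop carries selenium in secreted form, and Cbr2 is a carbonyl reductase. In several tissues LYVE1-positive, FOLR2-positive macrophages lie along vessels and in connective tissue.

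The sections held 2709 to 3276 spots over tissue with at least 1 UMI (unique molecular identifier, 1 captured molecule), with 82594649 to 146460975 UMIs per section and a median of 31158 to 41740 UMIs per spot. Each spot is a small region that can hold several cells, and a section stands for 1 tumor. The 4 genes listed as markers of MC38 cells were detected together at 123 to 268 CPM, the UMIs of a gene per 1000000 UMIs of the section. That sum was nearly all Shisal2b (123 to 267 CPM), with Krt8, Krt18 and Epcam each at 0.38 CPM or less. The 12 of 12 pan-macrophage markers were at 3252 to 5547 CPM summed. All 9 members were detected in every section, and all 9 passed the low-count filter of every fit. Fewer cells of a type and less RNA per cell cannot be told apart in these summed counts.

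Promoter sequence is shown for 3 members called higher in fibroblast-rich or vessel-rich spots (Folr2, Mrc1, Cd163) and for the pair with the highest correlation to Spp1-type macrophage genes (F13a1, Pf4), so that the letters upstream of the 2 patterns can be set side by side. RefSeq entries (GRCm38.p6) matched 8 of the 9 members, and the 5 printed are those whose RefSeq and GENCODE start sites lay within 25 bases of each other. Each line gives the 200 bases that end just before the more upstream start, 5′ to 3′. Capitals mark matches on either strand to the ETS-type motif GGAAGT, which is longer than the ETS core GGAA.
Folr2 (chr7:101857195-101857394, minus strand): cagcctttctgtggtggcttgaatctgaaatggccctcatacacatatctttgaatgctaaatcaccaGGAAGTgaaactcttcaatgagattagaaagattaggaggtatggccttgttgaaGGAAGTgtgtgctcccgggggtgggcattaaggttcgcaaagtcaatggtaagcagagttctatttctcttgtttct
Mrc1 (chr2:14229192-14229391, plus strand): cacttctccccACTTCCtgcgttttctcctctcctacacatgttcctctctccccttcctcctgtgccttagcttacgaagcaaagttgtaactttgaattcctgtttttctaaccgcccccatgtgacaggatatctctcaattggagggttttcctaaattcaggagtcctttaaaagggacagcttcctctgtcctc
Cd163 (chr6:124304451-124304650, plus strand): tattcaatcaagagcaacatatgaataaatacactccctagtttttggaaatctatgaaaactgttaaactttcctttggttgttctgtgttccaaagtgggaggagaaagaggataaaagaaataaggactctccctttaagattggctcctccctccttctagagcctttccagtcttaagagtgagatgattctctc
F13a1 (chr13:37050245-37050444, minus strand): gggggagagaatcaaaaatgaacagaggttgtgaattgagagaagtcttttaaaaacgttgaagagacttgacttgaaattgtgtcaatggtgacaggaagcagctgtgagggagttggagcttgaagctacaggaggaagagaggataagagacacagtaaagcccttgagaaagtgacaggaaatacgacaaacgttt
Pf4 (chr5:90772235-90772434, plus strand): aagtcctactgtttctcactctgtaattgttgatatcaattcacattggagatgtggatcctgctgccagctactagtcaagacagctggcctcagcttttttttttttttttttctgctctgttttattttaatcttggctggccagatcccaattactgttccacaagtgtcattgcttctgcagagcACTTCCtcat
The motif GGAAGT, which PU.1 and its relatives can recognise, was present in 3 of these 5 windows (2 matches in Folr2, 1 in Mrc1 and 1 in Pf4). It was present in 16.9% of 27025 RefSeq promoters over the same length. The Pf4 match also completed the longer PU.1 motif GAGGAAGT, which contains GGAAGT and occurred in 2.10% of promoters. None of the 5 windows held the MAF-binding motif TGCTGA (3510 of the 27025 promoters) or the AP-1 motif TGANTCA (5.55% of promoters), both searched on either strand. The matches describe letters only, and they did not follow the 2 patterns: GGAAGT was in Folr2 and Mrc1 but not Cd163, and in Pf4 but not F13a1. The shorter ETS core GGAA does occur in the printed Cd163 and F13a1 windows, and its matches were not counted.

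For the comparison between strains, 8 of the 9 members were lower in both CC075F1 sections than in both CC080F1 sections. The same ordering held for 30.3% of the 15572 genes tested, and 0.0899% of them passed an adjusted p of 0.05 in either direction; since the strain contrast was used to choose the members, nothing is read from their count. Fcrls, on chromosome 3 (87250758 to 87263738), was at 23.0 and 18.6 CPM in CC075F1 and at 93.6 and 105.4 CPM in CC080F1, a mean ratio of 4.79 in favor of CC080F1. Its replicates lay close together, the higher being 1.24 times the lower in CC075F1 and 1.13 times in CC080F1.

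The sparser members had the larger ratios. Cbr2 (chromosome 11, 120729489 to 120732114) was at 2.89 and 1.95 CPM in CC075F1 and at 21.3 and 22.7 CPM in CC080F1. F13a1 (chromosome 13, 36867178 to 37050244) was at 4.27 and 3.63 CPM against 23.5 and 36.8 CPM. Folr2 (chromosome 7, 101839988 to 101857194) was at 1.91 and 4.14 CPM against 16.7 and 25.3 CPM. For all 3 the lowest CC080F1 section was at least 4.02 times the highest CC075F1 section, the smallest such gap being that of Folr2, whose CC075F1 sections themselves differed 2.17-fold.

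Cd163 (chromosome 6, 124304656 to 124330527) rested on few molecules, with a total of 6 and 24 UMIs per CC075F1 section, against 113 and 200 per CC080F1 section. That is 0.073 and 0.16 CPM against 1.21 and 1.77 CPM. Lyve1 (chromosome 7, 110850607 to 110863239) had 33 and 73 UMIs in CC075F1 and 148 and 499 in CC080F1, or 0.40 and 0.50 CPM against 1.58 and 4.43 CPM. The CC080F1 sections differed 2.80-fold from each other in Lyve1, so its strain ratio of 6.69 depends heavily on replicate 2.

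The abundant scavenging and secreted members differed less. Mrc1 (chromosome 2, 14229392 to 14332057) was at 45.4 and 23.1 CPM in CC075F1 and at 72.4 and 60.4 CPM in CC080F1, a ratio of 1.94. Pf4 (chromosome 5, 90772435 to 90773383) was at 87.3 and 72.1 CPM against 135.6 and 118.1 CPM, a ratio of 1.59. Selenop (chromosome 15, 3268547 to 3280508) was at 88.0 and 53.7 CPM against 102.8 and 77.4 CPM, and was the only member whose groups overlapped. These CPM are scaled by section totals only. With such scaling the median log2 difference of all genes (CC075F1 minus CC080F1) was -0.31, against -0.02 with TMM scaling for composition. Each member's difference was smaller with TMM: -1.96 instead of -2.26 for Fcrls, -0.70 instead of -0.96 for Mrc1, -0.36 instead of -0.67 for Pf4 and -0.07 instead of -0.35 for Selenop.

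**Figure D1:**
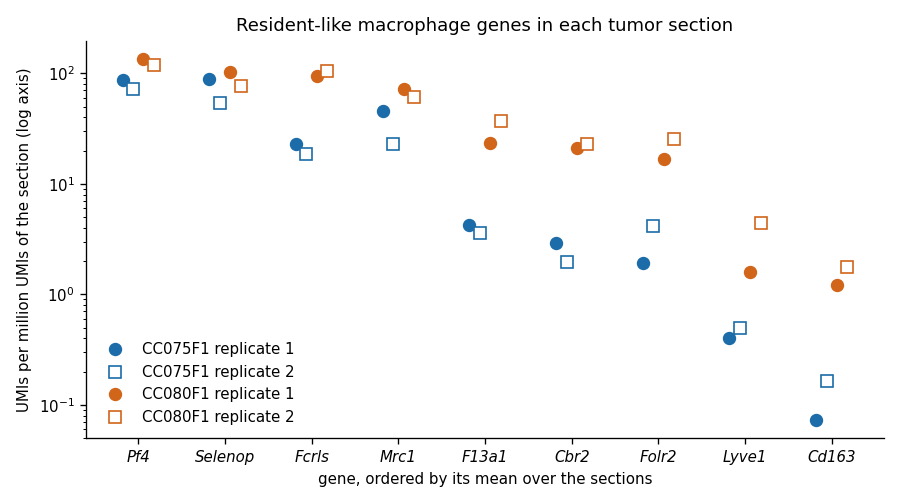
CPM of each member (x axis, ordered by mean) in each section (y axis, log scale); blue marks CC075F1 and orange CC080F1, circles replicate 1 and squares replicate 2, each point being 1 section. Orange points sit above blue points for all genes except Selenop, where CC080F1 replicate 2 (77.4) falls below CC075F1 replicate 1 (88.0). The gap from the highest blue to the lowest orange point is widest for Cd163 (7.37-fold), Cbr2 (7.36-fold) and F13a1 (5.50-fold). For the sparse Lyve1 it is 3.17-fold.

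The summed pan-macrophage markers (among them C1qa and C1qb, complement subunits, and Lyz2, lysozyme) were at 5547 and 5179 CPM in CC075F1 and at 3252 and 3950 CPM in CC080F1. None of the 12 genes passed between strains. The sum was carried by Lyz2, the C1q genes and Tyrobp, whereas Adgre1 (75.5 and 47.0 against 65.1 and 61.9 CPM), Csf1r and Cd68 overlapped between the groups and Itgam was at 21.6 and 21.6 against 35.0 and 30.4 CPM, so the ratios that follow rest mainly on those abundant genes. Set against 1000 pan-macrophage UMIs, Fcrls was at 4.14 and 3.58 in CC075F1 and at 28.8 and 26.7 in CC080F1, a ratio of 7.18. On this scale the groups did not overlap for any of the 9 members, Selenop included (15.9 and 10.4 against 31.6 and 19.6). The ratios ran from 1.95 for Selenop to 18.3 for Cd163. Because the pan-macrophage sum was higher in both CC075F1 sections, dividing by it lowers the CC075F1 values of any gene. The share of all genes without overlap on this scale was not counted, so nothing is read from the members' count.

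Marker sums of other cell types also differed, although none of the 10 fibroblast, 12 endothelial and 7 adipocyte genes measured passed between strains. The summed fibroblast markers were at 1924 and 1143 CPM in CC075F1 and at 2898 and 2655 CPM in CC080F1. That sum was mostly Col3a1 (log2 difference -1.01, adjusted p = 0.830) and Dcn (-0.31, adjusted p = 0.850), while Col1a2 (0.90, adjusted p = 0.831), Bgn (0.67, adjusted p = 0.831) and Col1a1 (0.39, adjusted p = 0.895) had the opposite sign. The endothelial markers were at 163 and 136 CPM against 262 and 211 CPM, and the adipocyte markers at 43.9 and 32.1 CPM against 76.9 and 53.5 CPM. The adipocyte sum was mostly Fabp4, at 29.7 and 29.0 CPM in CC075F1 against 60.5 and 43.3 CPM in CC080F1. Their part in the strain difference of the members was not tested.

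Other genes of the same macrophage programs, from lists chosen with earlier results of these data known, gave few calls between strains. None of the 21 measured genes of the second resident-like list passed (edgeR quasi-likelihood test, Benjamini-Hochberg), with a median log2 difference of -0.55 (CC075F1 minus CC080F1) beside -0.02 over all genes. Its most abundant genes were not uniform in sign: Stab1, a scavenger receptor, had a log2 difference of -0.55 (SE 0.19, adjusted p = 0.75), the transcription factor gene Maf -0.40 (SE 0.22, adjusted p = 0.83), and the chemokine gene Ccl8 1.50 (SE 0.56, adjusted p = 0.83). Of the 14 growth factor and regulator genes none passed, and Csf1, the main macrophage growth factor, was at 205 and 161 CPM in CC075F1 and at 190 and 200 CPM in CC080F1. In the list of IFN-gamma-induced genes 2 of 12 were higher in CC075F1, the tryptophan-degrading enzyme gene Ido1 (log2 difference 4.19, SE 0.35, adjusted p = 0.0181) and the MHC class II gene H2-Eb1 (3.66, SE 0.34, adjusted p = 0.0263). For the strain comparison as a whole 14 of 15572 genes passed, with 846 at an unadjusted p under 0.05.

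The share of spots with at least 1 UMI followed the levels. Fcrls was found in 43.0% and 48.4% of spots in CC075F1 and in 89.1% and 84.3% in CC080F1. Cbr2 was found in 7.79% and 7.60% against 46.2% and 42.1%, F13a1 in 10.4% and 13.7% against 44.2% and 60.4%, and Folr2 in 5.54% and 15.4% against 41.1% and 51.4%. Mrc1 was found in 68.1% and 57.2% against 86.0% and 77.5%. Pf4 and Selenop were near saturation in all sections, at 82.8% to 94.9% and 83.0% to 92.3% of spots, so shares say little about them.

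Lyve1 and Cd163 were rare in every section. Lyve1 was found in 1.22% (exact 95% interval 0.840 to 1.71) and 2.01% (1.56 to 2.56) of spots in CC075F1 and in 4.74% (3.98 to 5.59) and 10.1% (9.03 to 11.1) in CC080F1. Cd163 was found in 0.221% (0.081 to 0.481) and 0.641% (0.397 to 0.978) against 3.84% (3.16 to 4.62) and 5.42% (4.66 to 6.26). The intervals cover counting error only. With every spot thinned to 10000 UMIs (2549 to 3174 spots a section), the CC075F1 shares stayed below the CC080F1 shares for all members except Selenop, for example 19.3% and 16.3% against 58.2% and 59.4% for Fcrls. The percentage of all genes with this ordering of spot shares was not counted, so nothing is read from the members' count.

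The next question was where in the tumors these transcripts lay, and this comparison within sections did not use the strain difference. Edge spots were those within 3 grid steps of the nearest position without tissue (567 to 880 spots a section), and the 4 sections served as blocks. The border of the array, where tissue can be cut off and which 1 to 75 spots a section touched, did not count as an edge. Only 1 of the 9 members, Lyve1, was called between edge and interior, beside 1.00% of 15089 genes called higher at the edge. Lyve1 was at 1.16 CPM at the edge against 0.28 CPM inside in CC075F1 replicate 1, 1.52 against 0.35 in CC075F1 replicate 2, 2.94 against 1.02 in CC080F1 replicate 1, and 13.9 against 2.64 in CC080F1 replicate 2. It was higher at the edge in 4 of 4 sections, with a log2 difference of 1.98 (SE 0.20, adjusted p = 0.00799, edgeR quasi-likelihood test). Without CC080F1 replicate 2 the difference was 1.77 and the call was lost (adjusted p = 0.135), and 4 genes were called in all, against 166 with it. DESeq2 called 467 genes higher and 163 lower, against 151 and 15.

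Cd163 had the same direction in 4 of 4 sections but did not pass. It was at 0.18 CPM at the edge against 0.06 inside, 0.79 against 0.07, 1.58 against 1.05 and 3.75 against 1.40 in the same order of sections, a log2 difference of 1.50 (SE 0.41, adjusted p = 0.117). The first of these pairs rests on 6 UMIs in all. Fcrls went the other way, at 12.9 against 24.6, 17.4 against 18.7, 84.5 against 97.3 and 70.9 against 112 CPM, lower at the edge in 4 of 4 sections with a log2 difference of -0.51 (SE 0.11, adjusted p = 0.0691). The remaining 6 members had log2 differences of 0.10 (Cbr2) to 0.52 (F13a1) and adjusted p of 0.208 or more. Without CC080F1 replicate 1, Cd163, Fcrls and Selenop passed as well (log2 1.97, -0.63 and 0.37).

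Across 4 distance classes (1 to 3, 4 to 6, 7 to 10 and at least 11 steps), Fcrls reached its highest level in the deepest class in 3 sections, for example 70.9, 89.5, 111 and 121 CPM in CC080F1 replicate 2. In CC080F1 replicate 1 it was at 84.5 CPM in the outer class and at 95.5 to 98.5 CPM in the others. Lyve1 was highest in the outer class in all 4 sections, falling in CC080F1 replicate 2 from 13.9 to 3.42, 2.79 and 2.24 CPM.

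**Figure D2:**
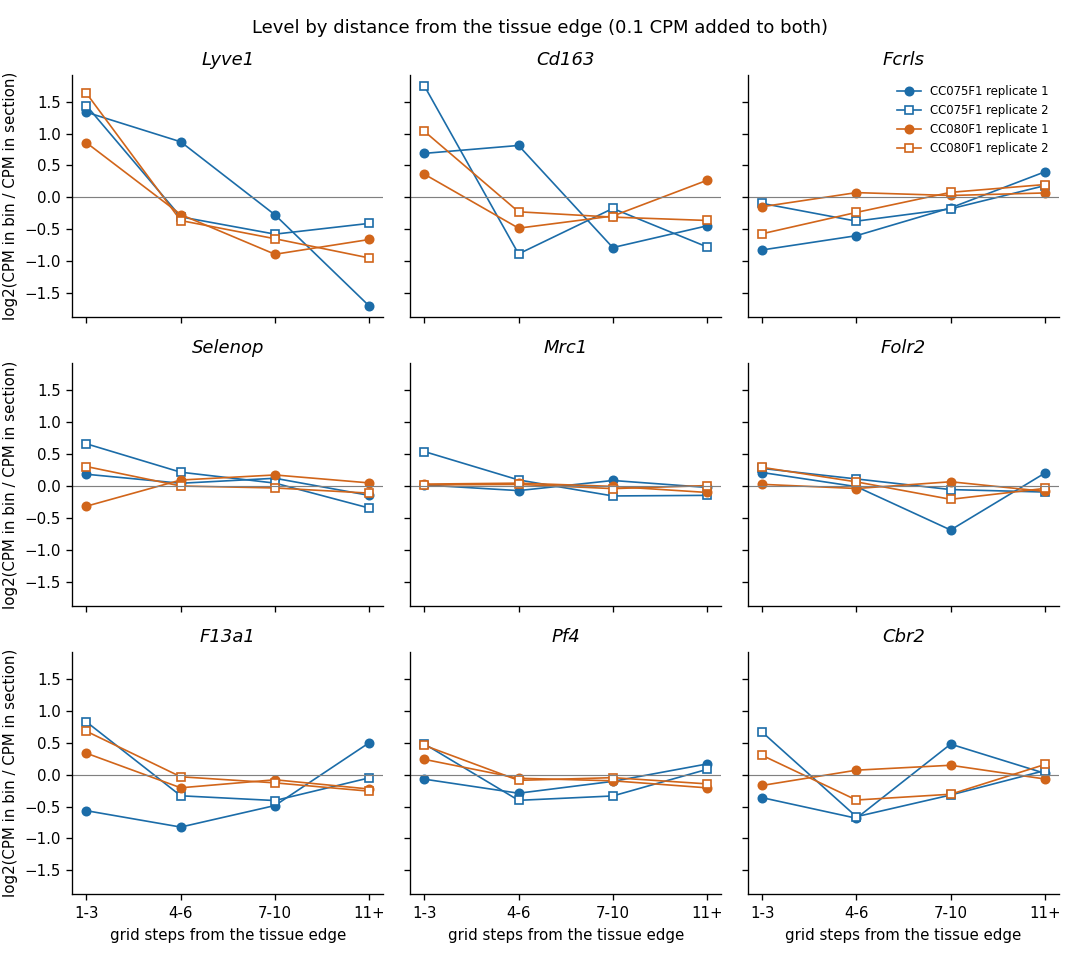
Log2 ratio of a member's CPM in a distance class to its CPM in the whole section (y axis, 0.1 CPM added to both) against grid steps from the tissue edge (x axis), a line per section, colors and symbols as for the levels. Lyve1 is highest in the outer class in all 4 sections, and Fcrls is highest in the deepest class in 3; Cd163 and Lyve1 points of CC075F1 rest on 29 UMIs or fewer each.

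Depth and neighboring tissue differed between edge and interior. Edge spots were shallower, with a median of 18036 to 30120 UMIs against 33592 to 46146 inside, and in spots of at least 10000 UMIs Lyve1 was still called (log2 1.93, adjusted p = 0.0133). Lymphatic endothelium also carries Lyve1. The 6 other lymphatic markers summed to 42.9 to 75.5 CPM at the edge and 24.8 to 49.4 CPM inside. Over whole sections that sum was mostly Pdpn, for example 33.9 of 36.0 CPM in CC075F1 replicate 1. At the edge 2 to 6 of the 6 were detected. The defining markers Prox1 and Ccl21a were at 0 in all spots of CC075F1 replicate 1 and CC080F1 replicate 2. Adipocyte markers summed to 66.5 to 134.6 CPM at the edge and 26.9 to 76.7 CPM inside. Over whole sections that sum was mostly Fabp4, for example 60.5 of 76.9 CPM in CC080F1 replicate 1, with Adipoq at 0.08 to 0.59 CPM. Skeletal muscle markers reached 1108 CPM at the edge of CC075F1 replicate 2 against 19.2 inside. The pan-macrophage sum was at 3106 to 6452 CPM at the edge and 3312 to 5537 inside. The part of these cell types in the edge pattern was not tested.

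**Figure D3:**
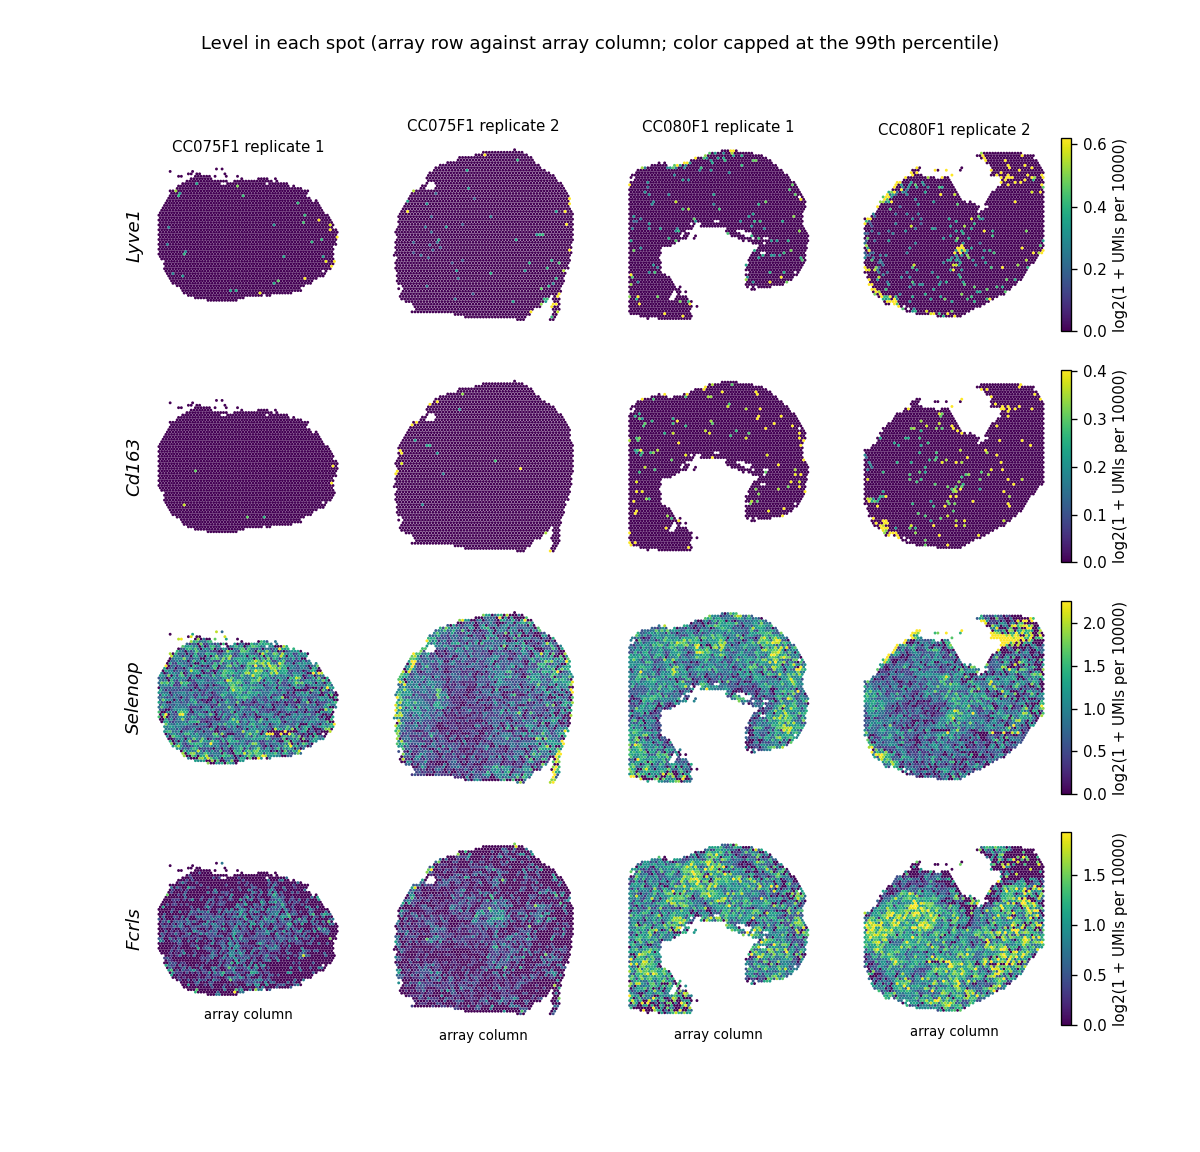
Level of Lyve1, Cd163, Selenop and Fcrls (rows) in every spot of the 4 sections (columns), as log2(1 + UMIs per 10000), drawn by array row and column with the color capped at the 99th percentile of the gene. Lyve1 appears as single spots with a concentration on parts of the rim, Cd163 as scattered single spots with fewer in CC075F1, Selenop covers the section with patches, and Fcrls fills the interior of the CC080F1 sections and is dim in CC075F1.

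Stroma was compared by taking, in each section, the 25% of spots with the highest mean level of 10 fibroblast markers (collagens, Dcn, Lum and others) against the rest. Of the 9 members, 4 were higher in fibroblast-rich spots and none lower, beside 5.68% of 15125 genes called higher. Lyve1 rose most, with a log2 difference of 1.92 (SE 0.25, adjusted p = 0.00764), from 0.26, 0.27, 1.23 and 2.31 CPM in other spots to 0.92, 1.56, 2.72 and 13.4 CPM. Cd163 rose by 1.75 on the log2 scale (SE 0.40, adjusted p = 0.0418), from 0.06, 0.04, 0.94 and 1.24 CPM to 0.11, 0.72, 2.08 and 4.04 CPM. Both were higher in 4 of 4 sections.

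Selenop and Folr2 rose by less and as regularly. Selenop was at 104, 97.1, 122 and 121 CPM in fibroblast-rich spots and at 83.8, 44.2, 96.8 and 67.2 CPM elsewhere, a log2 difference of 0.54 (SE 0.11, adjusted p = 0.0282). Folr2 was at 2.24, 7.00, 19.8 and 36.5 CPM against 1.83, 3.52, 15.7 and 22.7 CPM, a log2 difference of 0.49 (SE 0.09, adjusted p = 0.0244). In each of the 4 sections both were higher in the fibroblast-rich spots. Mrc1 (log2 0.31, adjusted p = 0.0709), Cbr2 (0.39, adjusted p = 0.0682), F13a1 (0.43, adjusted p = 0.0971) and Pf4 (0.25, adjusted p = 0.153) were positive without passing, and Fcrls was at -0.22 (adjusted p = 0.0868).

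These calls depended on single sections. Without CC080F1 replicate 2 edgeR called no gene at all (2539 at an unadjusted p under 0.05), against 1136 with it, and Lyve1 was at an adjusted p of 0.117, while without CC075F1 replicate 2 there were 8 calls, 7 higher and Fcrls lower (log2 -0.27, adjusted p = 0.016). Cd163 also lost its call without CC075F1 replicate 1 (adjusted p = 0.0583). Library sizes alone gave 597 genes higher and 56 lower and DESeq2 1009 and 629, against 859 and 277; with library sizes Selenop (adjusted p = 0.0533) and Cd163 (0.0669) did not pass. Cd163 was also lost in spots of at least 10000 UMIs (0.0771), and Selenop with the top 10% of spots (0.0585). Fibroblast-rich spots made up 30.1% to 63.8% of edge spots and 15.1% to 22.7% of interior spots. Within interior spots only, Lyve1 (log2 1.11, adjusted p = 0.0138), Selenop (0.39, adjusted p = 0.0022) and Folr2 (0.36, adjusted p = 0.0091) still passed and Cd163 did not (0.88, adjusted p = 0.0528).

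In the second resident-like list 11 of 20 measured genes were higher in fibroblast-rich spots and none lower, with a median log2 difference of 0.97 beside -0.03 over all genes. They included the C-type lectin genes Cd209f (log2 3.67), Cd209g (3.59), Clec10a (1.92) and Mgl2 (0.85), the complement receptor gene Vsig4 (1.66), Ccl8 (1.38), the scavenger receptor gene Marco (2.38), the alternative activation marker Retnla (2.73), Ednrb (1.06) and Fcna (0.79). The Cd209 genes are near-identical copies between which reads can be split. Stab1 and Maf were at 0.28 (adjusted p = 0.0907) and 0.14 (adjusted p = 0.285), and none of the 12 pan-macrophage genes was called. The rise was not particular to resident-like genes: 6 of 8 monocyte and 7 of 12 IFN-gamma-induced genes were higher and none lower. Of the conventional dendritic type 2 genes 4 of 6 were higher and none lower, and of the 8 Spp1-type genes none was called. Adipocyte genes were higher in the same spots (4 of 7 measured), and so was the lymphatic endothelial gene Flt4 (log2 0.99, adjusted p = 0.00958); their part in the members' values was not tested.

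Vessels were compared in the same way with 12 endothelial markers, among them Pecam1, Cdh5 and Kdr. Of the 9 members 4 were higher in vessel-rich spots, beside 11.4% of 14999 genes called higher, and 1 was lower, beside 9.82% called lower. Selenop rose in 4 of 4 sections, from 83.2, 45.3, 97.6 and 68.1 CPM to 103, 86.8, 119 and 107 CPM (log2 0.43, SE 0.07, adjusted p = 0.00136). Mrc1 rose slightly, from 44.3, 21.2, 71.2 and 56.1 CPM to 48.5, 30.8, 76.1 and 74.2 CPM (log2 0.17, SE 0.05, adjusted p = 0.0393). Lyve1 (log2 0.93, adjusted p = 0.0302) and Cd163 (0.86, adjusted p = 0.0457) were also called, although Lyve1 was at 1.56 CPM in the vessel-rich spots of CC080F1 replicate 1 and at 1.59 CPM elsewhere in it.

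Fcrls was lower in vessel-rich spots by the fit (log2 -0.27, SE 0.07, adjusted p = 0.0218). Its CPM was 16.2 against 25.1, 20.1 against 18.2, 89.3 against 95.0 and 96.8 against 108, so it was lower in 3 of 4 sections before scaling, and with library sizes alone the difference was -0.16 and no longer passed (adjusted p = 0.251). That scaling moved the median of all genes from -0.02 to 0.09 on the log2 scale, and changed the split of calls from 1708 higher and 1473 lower to 3400 and 461. F13a1 was at -0.41 (adjusted p = 0.0513), Pf4 at -0.04, Cbr2 at 0.08 and Folr2 at 0.17 (adjusted p = 0.116). Selenop was the only called member to keep its call when any 1 section was left out (adjusted p of at most 0.0166); without CC080F1 replicate 2 Lyve1, Cd163, Mrc1 and Fcrls lost theirs, and without CC075F1 replicate 1 Lyve1 (adjusted p = 0.0694) and Cd163 (0.0799) lost theirs, while without CC075F1 replicate 2 Cd163 (0.0615) and Mrc1 (0.0612) did. Within interior spots Selenop (adjusted p = 0.000299), Lyve1 (0.00221) and Fcrls (0.00574) passed and Cd163 (0.118) and Mrc1 (0.0755) did not; Cd163 was also lost in spots of at least 10000 UMIs (0.0811), with library sizes (0.0507) and with DESeq2 (0.0962), Mrc1 with DESeq2 (0.0819), Lyve1 with the top 50% of spots (0.210), and Fcrls with the top 50% (0.0949) and the top 10% (0.0504).

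**Figure D4:**
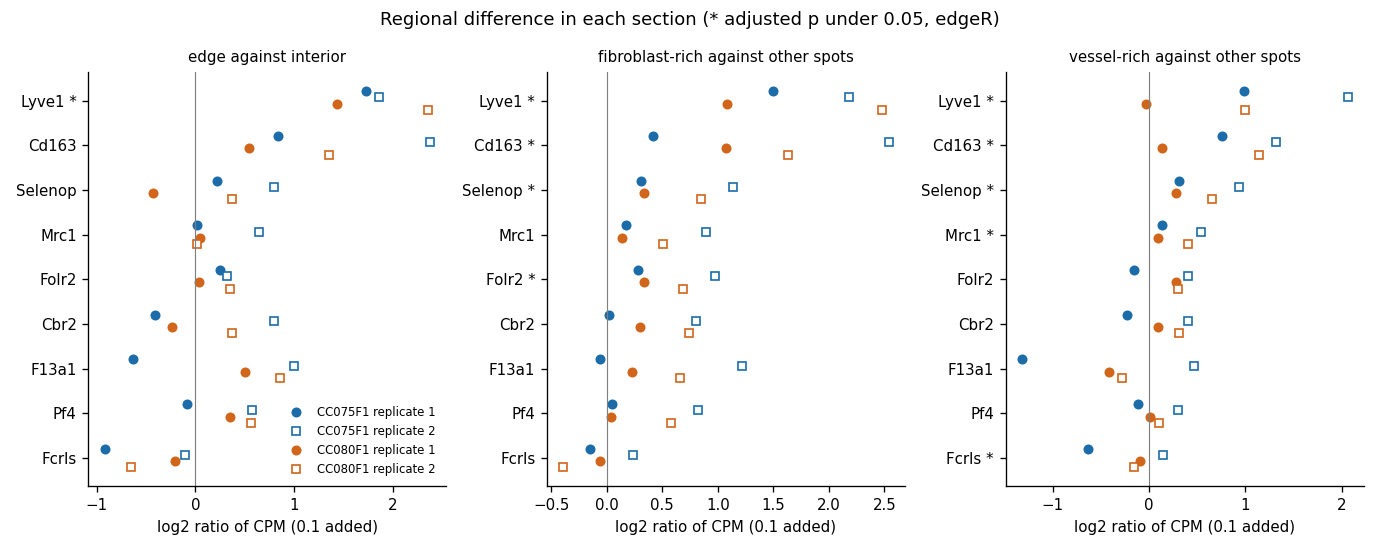
Log2 ratio of CPM (0.1 added) between edge and interior, fibroblast-rich and other, and vessel-rich and other spots (3 panels, x axes) for each member (y axis) in each section, colors and symbols as for the levels; asterisks mark an adjusted p under 0.05 in the edgeR fit, which scales by TMM, whereas the points are unscaled CPM. Lyve1 and Cd163 points lie farthest right, Selenop points are right of 0 in the stroma and vessel panels, and Fcrls points lie around or left of 0.

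In the second resident-like list 9 of 21 were higher beside vessels (among them Stab1, log2 0.25, adjusted p = 0.0130, and Ccl8, 0.98), and 1, the heme oxygenase gene Hmox1, was lower (-0.71, adjusted p = 0.00109). Other lists rose there as well: 7 of 8 monocyte genes were higher and 1 lower, and 10 of 12 IFN-gamma-induced genes were higher and 1 lower. Of the conventional dendritic type 2 genes 4 of 6 were higher and none lower. Of the hypoxia genes 9 of 10 were lower, for example Car9 (-1.98) and Slc2a1 (-1.39). Of the Spp1-type macrophage genes 4 of 8 were lower (Lgals3 -0.48, Arg1 -0.43, Gpnmb -0.31 and Fabp5 -0.22) and none higher. None of the members passed a test of whether the regional difference itself differed between strains, among 16 genes called for the edge, 0 for fibroblast-rich spots (257 at an unadjusted p under 0.05) and 20 for vessel-rich spots; at an unadjusted p under 0.05 were Cd163 at the edge (adjusted p = 0.537) and Lyve1 beside vessels (adjusted p = 0.684).

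Set against pan-macrophage UMIs of the same spots, 15 of the 27 combinations of member and region had 1 direction in all 4 sections, 10 higher and 5 lower. The share of all genes with 1 direction on this scale was not counted, so nothing is read from this count. The pan-macrophage sum was itself higher in 4 of 4 sections in fibroblast-rich and in vessel-rich spots. Lyve1 per macrophage UMI was 1.99 ± 0.40 higher at the edge on the log2 scale (mean ± SD, n = 4 sections) and Cd163 1.78 ± 0.99 higher. Fcrls was lower in all 3 regions, by log2 means of -0.52 ± 0.34 at the edge, -0.33 ± 0.17 in fibroblast-rich spots and -0.40 ± 0.24 in vessel-rich spots. F13a1 (-0.60 ± 0.60) and Pf4 (-0.14 ± 0.08) were lower beside vessels in 4 of 4 sections, and Selenop higher (0.33 ± 0.13). For each of these the exact sign-flip permutation test gave the smallest two-sided p that 4 sections allow, which was 0.225 after adjustment over the 27.

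Edge, stroma and vessels overlap, so a Poisson regression over the spots of each section took the pan-macrophage, fibroblast and endothelial levels (each per SD) and the edge together; its coefficients are given without a test because spots of a section are not replicates. The fibroblast coefficient was positive in 4 of 4 sections for Lyve1 (mean 0.60 on the log2 scale), Cd163 (0.66), Cbr2 (0.42), F13a1 (0.41), Folr2 (0.36), Selenop (0.24) and Mrc1 (0.15). The endothelial coefficient was negative in 4 of 4 for F13a1 (-0.47), Fcrls (-0.16), Cbr2 (-0.12) and Pf4 (-0.10), and positive in 4 of 4 only for Selenop (0.09). The edge term stayed positive in 4 of 4 sections for Lyve1 (1.21) and Cd163 (0.70) and negative for Fcrls (-0.42) and Cbr2 (-0.23). For Cd163 it was 0.03 in CC075F1 replicate 1 (6 UMIs in all) and 1.61 in CC075F1 replicate 2 (24 UMIs). In the CC080F1 sections the Cd163 term was 0.53 and 0.62. The pan-macrophage coefficient was largest for Selenop (0.38), Mrc1 (0.30) and Fcrls (0.25). This regression was fitted for the members only. The share of all genes with 1 sign in 4 of 4 sections is therefore not known, and nothing is read from how many members had it.

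Correlations between members were low spot by spot. Correlations are of log2 levels adjusted for the spot's depth, over the 2709 to 3276 spots of a section, and are given as a description with no p, because neighboring spots share tissue and all values of a section share 1 library. Over the 36 pairs of members the mean r was 0.088, ranging from 0.033 in CC075F1 replicate 1 to 0.162 in CC080F1 replicate 2. The 12 pan-macrophage genes had a mean r of 0.183 among themselves, the 12 endothelial genes 0.211 and the 8 Spp1-type genes 0.110. With UMIs summed over a spot and its 6 neighbors the mean r was 0.186 for the members, 0.327 for the pan-macrophage genes, 0.440 for the endothelial genes and 0.199 for the Spp1-type genes. Sparse counts pull r toward 0, and abundance differed widely, from a mean of 0.80 CPM for Cd163 to 1681 CPM for Lyz2. The lists were not compared at equal counts, so their r values do not rank them in coordination.

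The members differed in which others they went with. Mrc1 and Selenop had the highest r (0.201, 0.104 to 0.315 over sections; 0.439 over neighborhoods). F13a1 and Pf4 followed at 0.154 (0.115 to 0.243; 0.397 over neighborhoods), and Cbr2 went with Selenop (0.141) and F13a1 (0.134). Lyve1 and Cd163, both called higher in fibroblast-rich spots, had r = 0.051 spot by spot and 0.129 over neighborhoods, and Fcrls and Lyve1 had r = -0.033.

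Against gene lists, F13a1 and Pf4 went with the Spp1-type list (r = 0.181 and 0.200, positive in all 4 sections). Its genes are used as markers of macrophages of hypoxic and damaged tumor areas, but which cells of a spot carried them was not resolved. F13a1 also went with hypoxia genes (0.179, from 0.010 to 0.307 over sections). Over neighborhoods that value was 0.315 (-0.010 to 0.490). Mrc1 and Selenop were negative with hypoxia in all 4 sections (-0.179 and -0.211; -0.375 and -0.377 over neighborhoods). Selenop went with fibroblast (0.287), endothelial (0.232) and pan-macrophage markers (0.319). Fcrls was highest with the pan-macrophage list (0.152). With the IFN-gamma-induced list the members did not share a sign. Selenop (0.237, and 0.372 over neighborhoods) and Mrc1 (0.064) were positive in all 4 sections. Fcrls (-0.151, and -0.319 over neighborhoods), Pf4 (-0.113) and F13a1 (-0.078) were negative in all 4, and the other members had mixed signs.

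All members except Fcrls (0.001) correlated with the second resident-like list at 0.176 to 0.336, as means over the 4 sections. Folr2 ran from -0.010 to 0.379 over sections and Fcrls from -0.127 to 0.142, while the other members were positive in every section. Lyve1 had r = 0.165 with fibroblast markers and 0.088 with lymphatic endothelial markers, the latter from 0.002 to 0.254 over sections. Pf4 had r = 0.072 with platelet markers (0.021 to 0.192), whose 8 genes summed to 1.59 to 3.17 CPM a section with Tubb1 at 0 in all 4, against 72.1 to 135.6 CPM for Pf4 itself. The part of lymphatic endothelium in Lyve1 and of platelets in Pf4 was not tested. F13a1 had r = 0.001 with the platelet list.

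**Figure D5:**
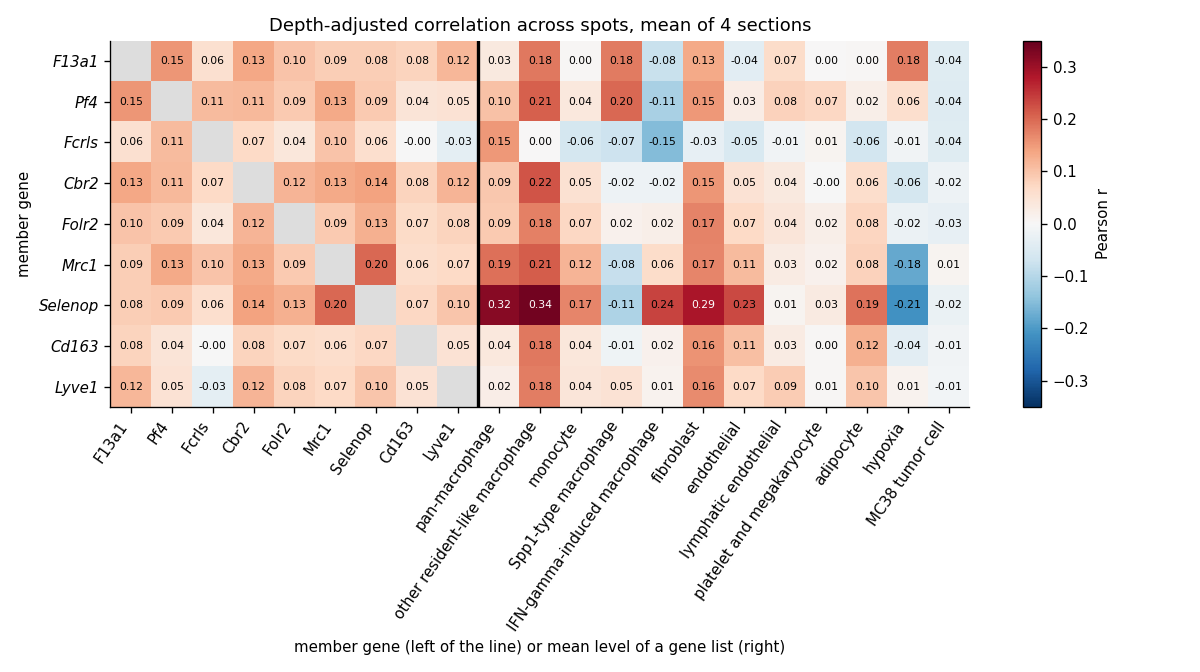
Depth-adjusted Pearson r across spots, averaged over the 4 sections (color and printed value), for each member (rows) with each other member (columns left of the line) and with the mean level of 12 gene lists (right of it); the diagonal is grey. The reddest member pair is Mrc1 with Selenop, the hypoxia column is positive for F13a1 and negative for Mrc1 and Selenop, and the second resident-like list is positive for all members except Fcrls, where it is 0.00.

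The 10 genes outside the set whose spot pattern was most like the mean of the members, of 11143 genes found in at least 5% of spots in every section, were Col1a1, Ctsd, Col1a2, Col3a1, Lox, Ctsb, Stab1, Lyz2, Apoe and Gas6, with mean r over the 4 sections from 0.291 to 0.253. They comprise fibrillar collagen genes and the collagen-crosslinking enzyme gene Lox, the lysosomal protease genes Ctsd and Ctsb, and the macrophage-expressed genes Stab1, Lyz2, Apoe and Gas6. For Col1a1 r ranged from 0.165 (CC080F1 replicate 1) to 0.429 (CC075F1 replicate 2).

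Spatial clustering, as Moran's I over neighboring spots (0 for no clustering), was highest among members for Fcrls (mean 0.213, 0.137 to 0.365) and Pf4 (0.170, 0.114 to 0.203), followed by F13a1 (0.135), Selenop (0.132), Mrc1 (0.116), Cbr2 (0.107), Folr2 (0.077), Lyve1 (0.064) and Cd163 (0.042). For comparison the macrophage gene Adgre1 was at 0.096, Pecam1 at 0.111, Spp1 at 0.257 and Col1a1 at 0.388. The section ranges of neighboring members in this order overlap. Sparse counts also lower Moran's I, and Lyve1 and Cd163, last in this order, had the fewest UMIs.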

How the data were processed

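Sections of 4 MC38 tumors (2 CC075F1, 2 CC080F1) were profiled by 10x Visium. The authors deposited raw UMI counts per gene and spot, made per the labels with Space Ranger on GRCm38 (mm10), and Seurat 5.0.1 is also named there. Depth was 82594649 to 146460975 UMIs a section, and 1 spot without UMIs was left out. No per-sample column was left unused. Levels are CPM (UMIs per 1000000 of the section or region), computed here. Counts were summed per section, or per region and section, filtered with filterByExpr, scaled by TMM and tested with edgeR 4.0.16 quasi-likelihood fits over all genes (Benjamini-Hochberg, threshold 0.05), with section as a block for regions; DESeq2 1.42.0 was an alternative. Genes of the list that defines a region were left out of its tests. Replicates are different tumors. By the study's methods, tissue blocks were sectioned onto a Visium slide, permeabilized for a time set per block, and the libraries were pooled for sequencing on a NovaSeq flow cell. The members and gene lists were chosen with earlier results of these data known. Genes named were the 9 members and, from each list described, up to 4 genes with the highest mean CPM and those that passed; from the regional lists some of these are given as counts. Reads were counted on the C57BL/6J reference, and the effect of the Collaborative Cross alleles on the counts was not tested. F13a1, Folr2 and Selenop overlap other annotated genes on the opposite strand, and Mrc1 overlaps Mir511; gene positions are from GENCODE on GRCm38. Alternatives were library-size scaling, DESeq2, no filter, other region limits, deeper spots and leaving out each section.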

Additional observations from a re-analysis of the deposited data

Results flagged for a closer look

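Relative to pan-macrophage UMIs of the same spots, Cbr2 was lower in vessel-rich than in other spots in both CC075F1 sections and higher in both CC080F1 sections, with a mean log2 difference between strains of -0.26 (CC075F1 minus CC080F1). Folr2 showed the same opposition, with a mean log2 difference of -0.32. The difference between strains on this scale was not tested. In the edgeR fits of the counts the strain by vessel terms of these genes had adjusted p = 1.00 for both. Among 27 combinations of member and region, some opposed directions in groups of 2 sections can occur by chance.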

How the results depend on the processing

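Lyve1 at the edge kept its call under every alternative except leaving out CC080F1 replicate 2, and Selenop beside vessels under all. For the strain comparison 14 genes passed; library sizes alone gave 40 (median log2 difference -0.31 against -0.02), no filter 480, DESeq2 194, and leaving out a section 11 to 207, the highest without CC080F1 replicate 2; in these a lone section is assumed to vary like the other group. With the replicate block 287 passed; the numbers are not said to pair tumors, and same-numbered sections deviated together with r = 0.165 over 15572 genes, with 2 pairs. At the edge, 166 genes became 71 within 5 steps, 313 with the outer boundary only, 683 with no filter and 630 with DESeq2, and 4 to 946 without a section (946 without CC080F1 replicate 1, 20 without CC075F1 replicate 1, 79 without CC075F1 replicate 2); the 1 member became 3 with no filter or DESeq2, and 0 to 4 without a section. In fibroblast-rich spots, 1136 genes became 2149 with the top 50%, 653 with library sizes and 2081 with no filter, and 0 to 1717 without a section (742 without CC075F1 replicate 1); the 4 members became 2, 8 with no filter, and 0 to 8. In vessel-rich spots, 3181 genes became 2083 with DESeq2 and 1442 to 3144 without a section; the 5 members became 3 with DESeq2 and 1 to 5. The mean correlation of 0.088 became 0.186 over neighborhoods. The causes were not tested. Among results that passed no direction reversed; of members that did not pass, Selenop between strains (-0.07) became 0.03 without CC075F1 replicate 2 and 0.08 without CC080F1 replicate 1, Cbr2 at the edge (0.10) -0.10 within 5 steps and -0.04 without CC080F1 replicate 2, and Pf4 beside vessels (-0.04) 0.08 with library sizes, 0.07 with the top 10% and 0.00 without CC075F1 replicate 1. Depth limits Cd163 and Lyve1, at 6 to 73 UMIs per CC075F1 section.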
